A study of Homo sapiens with 2 samples.

Results

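Actin filaments and the proteins that build, cap, sever, bundle and pull on them were followed through the RNA levels of 47 genes, taken by symbol from the 29452 gene rows of the deposited table. All 47 were in the table, and 46 of them reached at least 1 RPKM (reads per kilobase of exon, scaled to the size of the library) in the higher library. The exception was TAGLN. RNA was sequenced from MDA-MB-231 cells, an established human triple-negative breast cancer line, carrying a short hairpin RNA against CDK14 (CDK14-sh) or a scramble control. The hairpin's sequence, its vector, how many hairpins were used and the time after delivery were not given in the sources used here. Each group is 1 library of this cell line, so an effect of the hairpin and a difference between any pair of cultures cannot be told apart. No p-value is given, and "higher" and "lower" describe these libraries. In bulk RNA, fewer cells expressing a gene and less RNA per cell cannot be told apart either.

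Actin monomers assemble into filaments that drive protrusion at the cell front and, with myosin II, contraction of the cell body. The Arp2/3 complex starts branched filaments when activated by WASP-family proteins, formins and Ena/VASP proteins make long unbranched ones, capping protein stops growth, and cofilin and gelsolin sever. Tropomyosins coat filaments and decide which motors and regulators can bind. Filamins, alpha-actinins, fascin and plastins join filaments into networks and bundles. MDA-MB-231 cells are widely used as a model of invasive, mesenchymal-type migration, which depends on these parts.

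Gene rows summed to 15478156 reads in the CDK14-sh library, against 17217564 for scramble. CDK14 itself stood at 0.548 RPKM in CDK14-sh and 2.48 RPKM in the scramble control, 22.1% of the control (95% counting interval 16.4% to 29.4%). Intervals on a gene's ratio are Clopper-Pearson intervals on its reads, those on a ratio between genes use a normal approximation, and all cover counting error only. The cell line label was checked against its markers, and all 5 genes listed as present in this line were above 1 RPKM. They too were mostly lower in CDK14-sh, 4 of 5, with a median log2 ratio of -0.77 over the 5. MSN was 2.56-fold lower, CAV1 1.81-fold, VIM 1.70-fold and EGFR 1.16-fold, while CD44 was 1.16-fold higher. Of 5 luminal and HER2 markers listed as at or near 0, CDH1 was covered by 0 CDK14-sh reads and 2 scramble reads, PGR by 0 and 3, and ESR1 by 8 and 2 in the same order. The other two were above 1 RPKM, against that list: GATA3 had 129 CDK14-sh reads and 140 scramble reads, and ERBB2 stood at 2.96 RPKM in CDK14-sh and 2.33 RPKM in the scramble control. Markers of muscle, leukocytes and endothelium all lay under 1 RPKM. Of 14 muscle isoform genes in the table, such as ACTA1, DES and MYH11, none reached 1 RPKM. The smooth muscle actin gene ACTA2 was at 0.934 RPKM in CDK14-sh and 0.488 RPKM in the scramble control, and ACTA1 at 0.303 and 0.738 RPKM in the same order.

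Most of the actin cytoskeleton genes were lower in CDK14-sh, nearly all by modest amounts. Of the 46 genes above 1 RPKM, 33 had a log2 ratio below 0 and 13 above, with a median of -0.19. The median over all 14878 rows above 1 RPKM was 0.04, with 45.3% of them below 0. Mitochondrial rows took 17.1% of CDK14-sh reads and 14.5% of scramble reads, and with those reads left out of the totals the median of the 46 genes was -0.14. The ratio adds 0.1 RPKM to each level, which understates the change of low genes. ENAH, GSN and ARPC5 were at least 2-fold lower, which is 3 of 46 genes (6.52%) against 3.47% of all rows. At 1.5-fold WASL and ACTG1 joined them, making 5 of 46 (10.9%) against 9.55% of all rows, a share near the background. GSN, in both counts, reached 1 RPKM only in the scramble control (1.86 RPKM, against 0.786 RPKM in CDK14-sh). No gene of the 46 was 2-fold or 1.5-fold higher, while 3.21% and 9.11% of all rows were. Many rows are counted from few reads. Over the 11456 rows that also had 100 reads in the higher library, 2.03% were 2-fold lower and 7.55% were 1.5-fold lower. In the same rows 0.751% were 2-fold higher and 5.25% were 1.5-fold higher. The same 46 genes remained there, so 3 and 5 of them were lower and 0 higher.

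**Figure D1:**
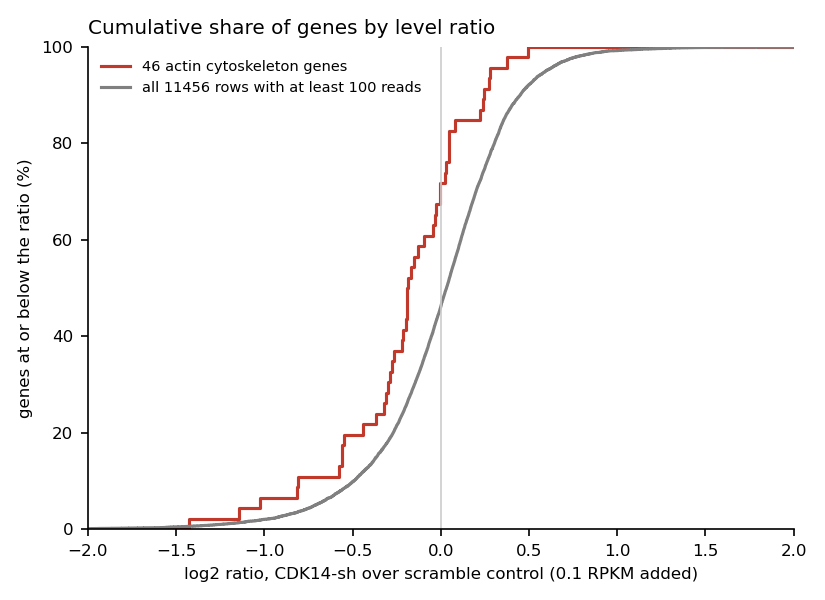
Cumulative share of genes (y axis, %) at or below each log2 ratio of CDK14-sh over scramble control (x axis) for the 46 actin cytoskeleton genes (red) and the 11456 rows with at least 100 reads (grey). The red curve lies left of the grey one, with medians of -0.19 and 0.03, and ends at the 0.50 of TPM1.

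The summed level of the 47 genes was 3451 RPKM in CDK14-sh and 3909 RPKM in the scramble control, 1.13-fold lower. They took 1.58% of all assigned reads in CDK14-sh (1.57% to 1.58%) and 1.85% in the scramble control (1.85% to 1.86%). The difference lay mainly in a pair of groups: cytoplasmic actins summed to 702 RPKM in CDK14-sh and 923 RPKM in the scramble control, and tropomyosins to 412 and 568 RPKM in the same order. Myosin II genes summed to 653 RPKM in CDK14-sh and 667 RPKM in the scramble control, a 1.02-fold difference. Transgelins, calponins and caldesmon were the only one of 9 role groups with a higher sum in CDK14-sh, 305 RPKM against 254 RPKM in the scramble control.

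**Figure D2:**
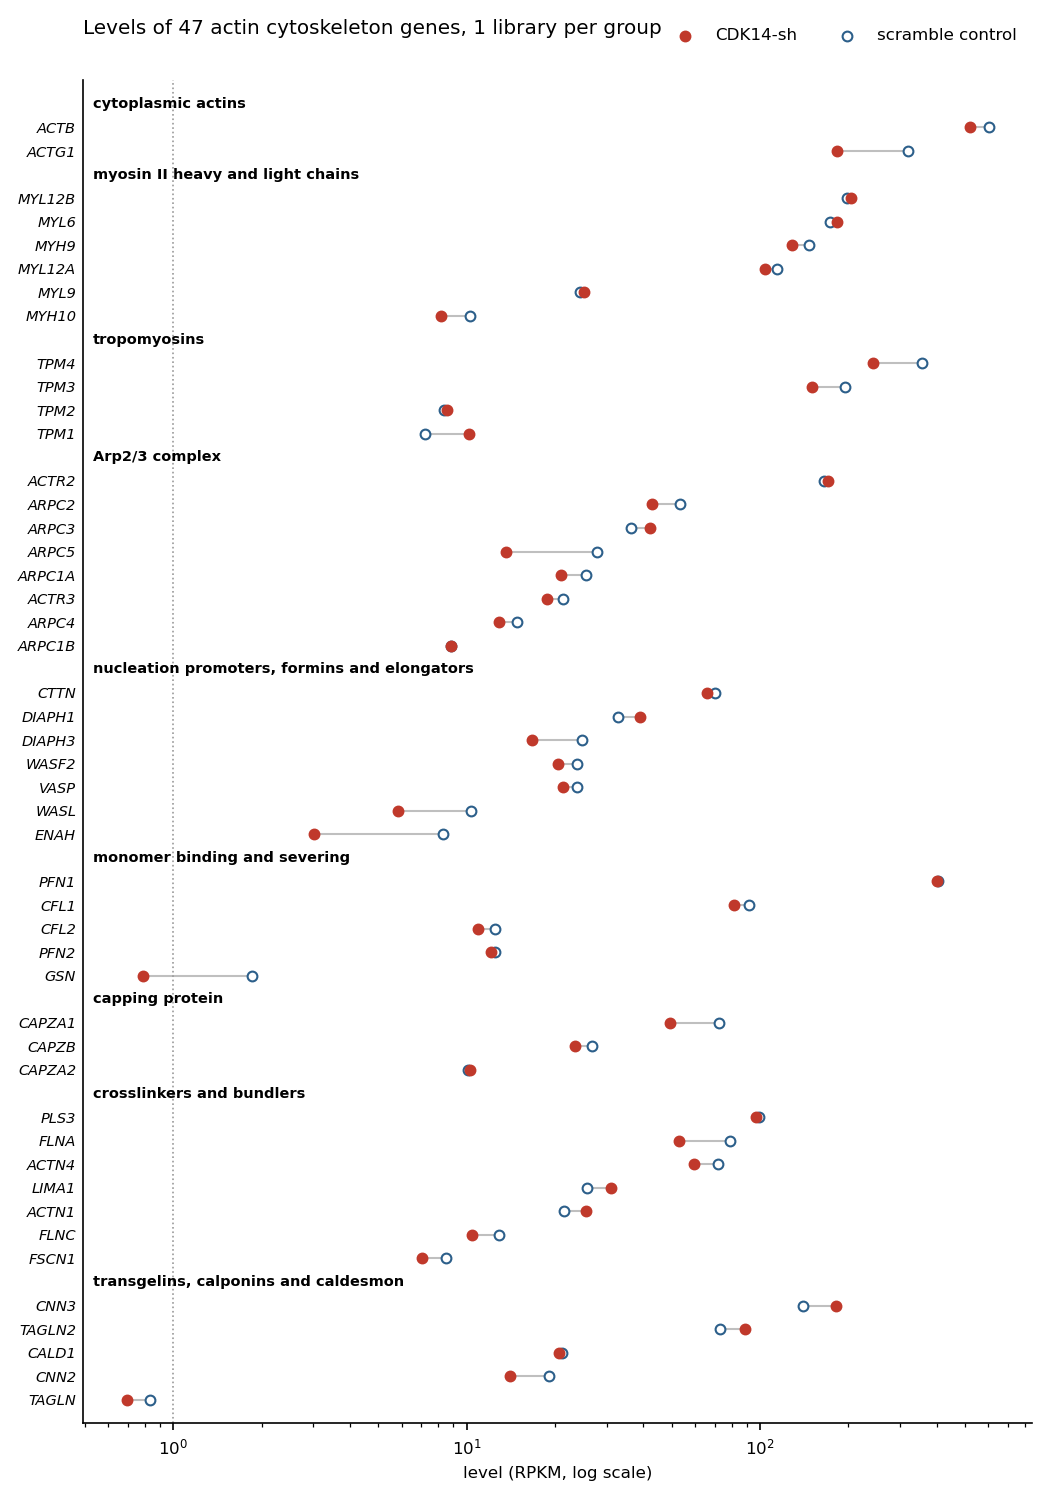
Level of each of the 47 genes in RPKM (x axis, log scale) in CDK14-sh (filled red) and the scramble control (open blue), 1 library each, grouped by role. Levels run from 0.693 RPKM for TAGLN to 603 RPKM for ACTB, and the widest gaps are those of ENAH, GSN and ARPC5.

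Sequences holding a promoter site or 3' UTR words were read from reference annotation and are shown first, since ACTG1 holds the site and ENAH, ARPC5 and WASL hold the words. A CArG box, the site bound by serum response factor, which is known to drive many actin genes, was searched for in RefSeq promoters (GRCh38.p14, 250 bases before to 50 after a gene's start). The box is its own reverse complement, so 1 search covers both strands. Promoters were listed for 39 of the 47 genes, and 5 of these 39 (12.8%) held a box: ACTG1, FLNA, TPM4, CNN2 and ACTN1. Of all 27305 gene symbols with a listed promoter, 1.60% did. No promoter was listed for ACTB, MYL9, ARPC1B, WASF2, CTTN, PFN2, FSCN1 or TAGLN. The box lies 94 to 85 bases before the start in ACTG1 and in FLNA, 89 to 80 bases before it in CNN2, 173 to 164 bases before it in TPM4 and 171 to 162 bases before it in ACTN1. TPM4 has 3 listed promoters and ACTN1 has 4, and in each 1 holds a box. The first 3 are printed whole and the others as the 30 bases round the box, with the box in capitals.
ACTG1 (promoter chr17:81512750-81513049, minus strand): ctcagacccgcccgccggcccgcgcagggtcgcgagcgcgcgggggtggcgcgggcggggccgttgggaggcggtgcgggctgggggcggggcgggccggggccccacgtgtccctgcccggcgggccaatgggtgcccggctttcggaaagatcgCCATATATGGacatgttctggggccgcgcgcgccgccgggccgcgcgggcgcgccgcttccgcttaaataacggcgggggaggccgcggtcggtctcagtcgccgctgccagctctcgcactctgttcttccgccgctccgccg
FLNA (promoter chrX:154374585-154374884, minus strand): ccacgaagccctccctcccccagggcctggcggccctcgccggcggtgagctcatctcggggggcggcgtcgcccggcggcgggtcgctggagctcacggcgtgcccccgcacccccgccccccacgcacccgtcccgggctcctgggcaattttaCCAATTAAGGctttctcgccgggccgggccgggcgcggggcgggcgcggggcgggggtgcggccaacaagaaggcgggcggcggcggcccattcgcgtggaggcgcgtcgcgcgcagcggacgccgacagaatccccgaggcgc
TPM4 (promoter chr19:16067288-16067587, plus strand): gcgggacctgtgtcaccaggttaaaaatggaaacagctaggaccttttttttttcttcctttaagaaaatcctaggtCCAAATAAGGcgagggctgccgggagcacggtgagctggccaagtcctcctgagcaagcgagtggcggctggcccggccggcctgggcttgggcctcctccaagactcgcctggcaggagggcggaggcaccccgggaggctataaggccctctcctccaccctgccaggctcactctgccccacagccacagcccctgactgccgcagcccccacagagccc
CNN2 (promoter chr19:1026358-1026657, plus strand): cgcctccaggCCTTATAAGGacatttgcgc
ACTN1 (promoter chr14:68977517-68977816, minus strand): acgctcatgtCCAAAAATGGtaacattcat

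The other sequences are 30-base windows of 3' untranslated regions (UTRs, GENCODE 29 on GRCh38). Each holds at least 7 consecutive bases of GTCATGCA or of ATCCATAA, which makes 4 words of 7 bases, with the words of 1 stretch overlapping by 6. An earlier analysis picked these words from the same ratios, as words common in the 3' UTRs of genes lower in CDK14-sh, so their link with lower levels here is no independent evidence. Only the strand of the transcript was searched. Windows of the 4 carriers with the lowest ratios are shown, a pair of them for ENAH, which has 5 such places. Capitals mark the word, or adjoining words.
ENAH (chr1:225495798-225495827, minus strand): agatattcattGTCATGCAgtagtagtaaa
ENAH (chr1:225496008-225496037, minus strand): tgtacatctcagTCCATAAagcaaagcttg
ARPC5 (chr1:183626832-183626861, minus strand): tatacaaatgtATCCATAAaatatcagagc
WASL (chr7:123682979-123683008, minus strand): aatctctagtgaTCATGCAtctagttatca
CAPZA1 (chr1:112671541-112671570, plus strand): ttcatactatccATCCATAccacactatct

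Actins come first by role. ACTB, encoding beta actin, was the most abundant gene of the set at 520 RPKM in CDK14-sh and 603 RPKM in the scramble control. It was 1.16-fold lower (1.14 to 1.18). ACTG1, encoding gamma actin and carrying the CArG box printed above, stood at 183 RPKM in CDK14-sh and 320 RPKM in the scramble control. It was 1.75-fold lower (1.71 to 1.80). The pair thus differed unequally, and this does not depend on how the libraries are scaled: ACTG1 had 0.351 times the level of ACTB in CDK14-sh and 0.531 times in the scramble control, a 1.51-fold lower ratio (1.47 to 1.56). The coding sequences of beta and gamma actin are nearly identical and both have many pseudogenes. How reads shared between them were counted was not given in the sources used here, so the split between these rows is uncertain.

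Among tropomyosins the members went in opposite directions. TPM4 stood at 243 RPKM in CDK14-sh and 358 RPKM in the scramble control and was 1.47-fold lower (1.45 to 1.49). TPM3 stood at 151 RPKM in CDK14-sh and 195 RPKM in the scramble control and was 1.29-fold lower (1.27 to 1.32). These are the dominant tropomyosin genes of the line by level per length. TPM2 hardly differed, at 8.56 RPKM in CDK14-sh and 8.37 RPKM in the scramble control, with an interval of 0.908 to 1.15 for the ratio. TPM1, which encodes isoforms known from stress fibres, was the gene with the highest ratio of all 46, at 10.2 RPKM in CDK14-sh and 7.23 RPKM in the scramble control, 1.42-fold higher (1.32 to 1.51). TPM1 therefore had 0.0421 times the level of TPM4 in CDK14-sh and 0.0202 times in the scramble control, a 2.08-fold higher ratio (1.95 to 2.23). The TPM1 row shares exons with 2 other rows and the TPM4 row with 1, so reads there cannot be assigned to a single gene. A row for the processed pseudogene TPM3P9 held 411 CDK14-sh reads and 567 scramble reads, against 19588 and 28160 in the TPM3 row.

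**Figure D3:**
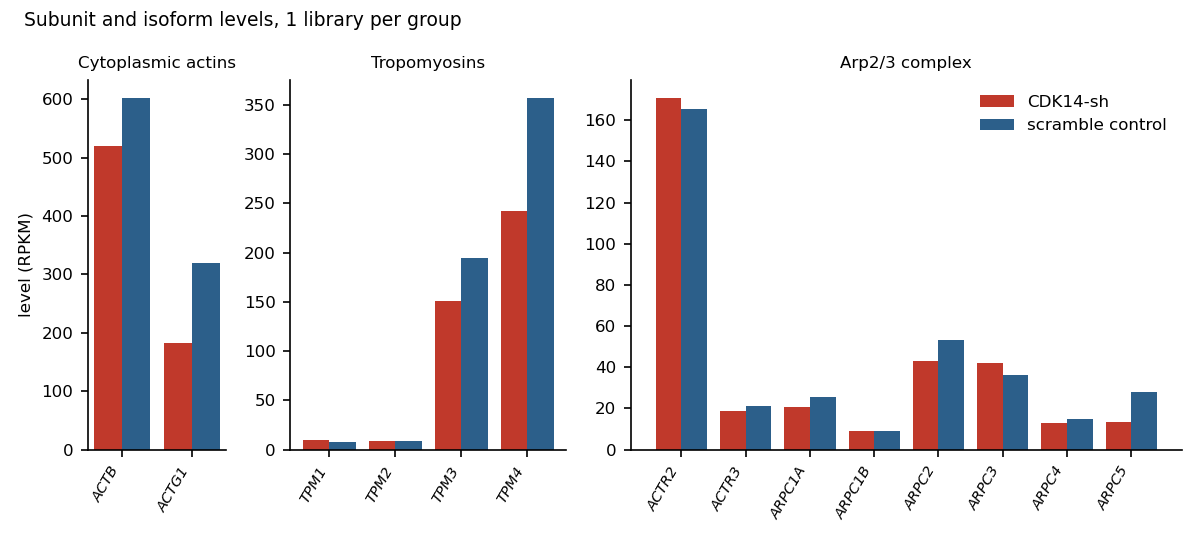
Levels in RPKM (y axis, each panel with its own scale from 0) of the cytoplasmic actins, the tropomyosins and the Arp2/3 subunits in CDK14-sh (red) and the scramble control (blue), 1 library each. ACTG1, TPM4 and ARPC5 show the largest gaps of their panels, with ARPC5 at 13.6 RPKM in CDK14-sh and 27.8 RPKM in the scramble control.

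The myosin II genes, whose products pull on actin, differed little from the control. MYH9, the main non-muscle heavy chain gene here, stood at 129 RPKM in CDK14-sh and 147 RPKM in the scramble control, 1.14-fold lower (1.12 to 1.17). MYH10, encoding the IIB heavy chain, stood at 8.17 RPKM in CDK14-sh and 10.2 RPKM in the scramble control, 1.25-fold lower (1.16 to 1.35). Both heavy chain genes were thus slightly lower. Of the light chain genes, MYL6, for the essential chain, was at 183 RPKM in CDK14-sh and 173 RPKM in the scramble control. MYL12B, a regulatory chain gene, was at 205 RPKM in CDK14-sh and 198 RPKM in the scramble control. Its neighbour and near-copy MYL12A was at 104 RPKM in CDK14-sh and 114 RPKM in the scramble control, 1.10-fold lower (1.06 to 1.14). How reads shared between MYL12A and MYL12B were counted was not given either, so their split is uncertain. MYL9, the third regulatory chain gene, was at 25.1 RPKM in CDK14-sh and 24.3 RPKM in the scramble control. The light chain genes were split, 3 slightly above and 1 slightly below the control, but in TPM, where the levels of each library sum to the same total and ratios shift by -0.15, all 4 lay below it. All 6 myosin II genes lay within log2 ratios of -0.32 to 0.08 in RPKM.

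The Arp2/3 complex holds 7 subunits in equal number. Some have alternative genes, such as ARPC1A or ARPC1B for ARPC1 and ARPC5 or ARPC5L for ARPC5. A single subunit gene of the set stood apart. ARPC5 was at 13.6 RPKM in CDK14-sh and 27.8 RPKM in the scramble control (2234 and 5079 reads), 2.04-fold lower (1.94 to 2.15). Its interval reaches below 2-fold, and once mitochondrial reads were dropped from the totals its log2 ratio was -0.98, short of 2-fold. ARPC5L, which is outside the set, was at 34.3 RPKM in CDK14-sh and 26.5 RPKM in the scramble control. It was 1.29-fold higher (1.21 to 1.38), so the ARPC5 ratio does not describe all RNA for this subunit. ARPC2, whose product helps hold the complex on the mother filament, was 1.24-fold lower (1.20 to 1.29), at 43.0 RPKM in CDK14-sh and 53.4 RPKM in the scramble control. ARPC3 was 1.17-fold higher (1.10 to 1.24), at 42.3 RPKM in CDK14-sh and 36.2 RPKM in the scramble control. So the subunit genes did not shift as a block. ACTR2, encoding Arp2 and the most abundant of them per length, was at 171 RPKM in CDK14-sh and 166 RPKM in the scramble control. ACTR3, encoding Arp3, was at 18.8 RPKM in CDK14-sh and 21.4 RPKM in the scramble control, 1.14-fold lower (1.09 to 1.19). ARPC4 was 1.15-fold lower (1.04 to 1.27), at 12.9 RPKM in CDK14-sh and 14.8 RPKM in the scramble control. The alternative ARPC1 genes parted a little: ARPC1A was at 20.9 RPKM in CDK14-sh and 25.6 RPKM in the scramble control, and ARPC1B at 8.85 and 8.87 RPKM in the same order. ARPC1A and ARPC1B share exons in this table, so their split is uncertain. Measured within each library, ARPC5 had 0.321 times the level of ARPC3 in CDK14-sh and 0.766 times in the scramble control, a 2.39-fold lower ratio (2.20 to 2.59). Summed exon lengths differ widely between these rows, from 2557 bases for ARPC1A to 12049 for ACTR3, and levels per length depend on them.

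Upstream of Arp2/3, the 3 activator genes of the set were lower to different degrees. WASL, encoding N-WASP, stood at 5.81 RPKM in CDK14-sh and 10.3 RPKM in the scramble control (399 and 787 reads), 1.77-fold lower (1.57 to 2.01). WASF2, encoding the lamellipodial activator WAVE2, was at 20.4 RPKM in CDK14-sh and 23.9 RPKM in the scramble control, 1.17-fold lower (1.10 to 1.24). CTTN, encoding cortactin, which steadies branches and marks invadopodia, was at 65.8 RPKM in CDK14-sh and 70.3 RPKM in the scramble control, 1.07-fold lower (1.04 to 1.10). N-WASP thus had the lowest ratio of the 3 activators.

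ENAH had the lowest ratio of all 47 genes. It encodes Mena, an Ena/VASP protein that speeds filament growth and is known for its part in breast cancer invasion. It stood at 3.03 RPKM in CDK14-sh and 8.32 RPKM in the scramble control (705 and 2154 reads), 2.75-fold lower (2.52 to 2.99). Among the 11456 rows with at least 100 reads it ranked 66 from the lowest ratio. Its relative VASP was 1.11-fold lower (1.03 to 1.20), at 21.4 RPKM in CDK14-sh and 23.7 RPKM in the scramble control. ENAH had 0.142 times the level of VASP in CDK14-sh and 0.351 times in the scramble control. The formin genes went opposite ways. DIAPH3 was at 16.7 RPKM in CDK14-sh and 24.7 RPKM in the scramble control, 1.48-fold lower (1.39 to 1.56), and its row overlaps the antisense row DIAPH3-AS1. DIAPH1 was at 38.8 RPKM in CDK14-sh and 32.9 RPKM in the scramble control, 1.18-fold higher (1.13 to 1.23).

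Of the genes whose products bind monomers or sever filaments, only GSN passed 1.5-fold. GSN, encoding gelsolin, stood at 0.786 RPKM in CDK14-sh and 1.86 RPKM in the scramble control (134 and 352 reads), 2.36-fold lower (1.93 to 2.90). It is close to the 1 RPKM limit and its row overlaps 4 other rows, GSN-AS1 among them. PFN1, encoding profilin 1, which feeds monomers to growing ends, was at 402 RPKM in CDK14-sh and 404 RPKM in the scramble control, a ratio of 0.995 (0.971 to 1.02). PFN2 was at 12.1 RPKM in CDK14-sh and 12.5 RPKM in the scramble control, and its interval (0.870 to 1.08) held 1 too. CFL1, encoding cofilin 1, was 1.12-fold lower (1.09 to 1.16), at 81.3 RPKM in CDK14-sh and 91.5 RPKM in the scramble control. CFL2 was 1.14-fold lower (1.06 to 1.23), at 11.0 RPKM in CDK14-sh and 12.5 RPKM in the scramble control. The cofilin genes therefore kept their proportion: CFL2 had 0.135 times the level of CFL1 in CDK14-sh and 0.137 times in the scramble control.

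Capping protein is a dimer of an alpha and a beta subunit. The main alpha gene, CAPZA1, was at 49.4 RPKM in CDK14-sh and 72.3 RPKM in the scramble control, 1.46-fold lower (1.40 to 1.53). The other alpha gene, CAPZA2, was at 10.3 RPKM in CDK14-sh and 10.1 RPKM in the scramble control, with an interval of 0.944 to 1.10 for the ratio. CAPZB, for the beta subunit, was at 23.4 RPKM in CDK14-sh and 26.7 RPKM in the scramble control, 1.14-fold lower (1.06 to 1.23). The alpha genes thus differed in ratio: CAPZA1 had 4.82 times the level of CAPZA2 in CDK14-sh and 7.18 times in the scramble control. The CAPZA1 row shares exons with ST7L.

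**Figure D4:**
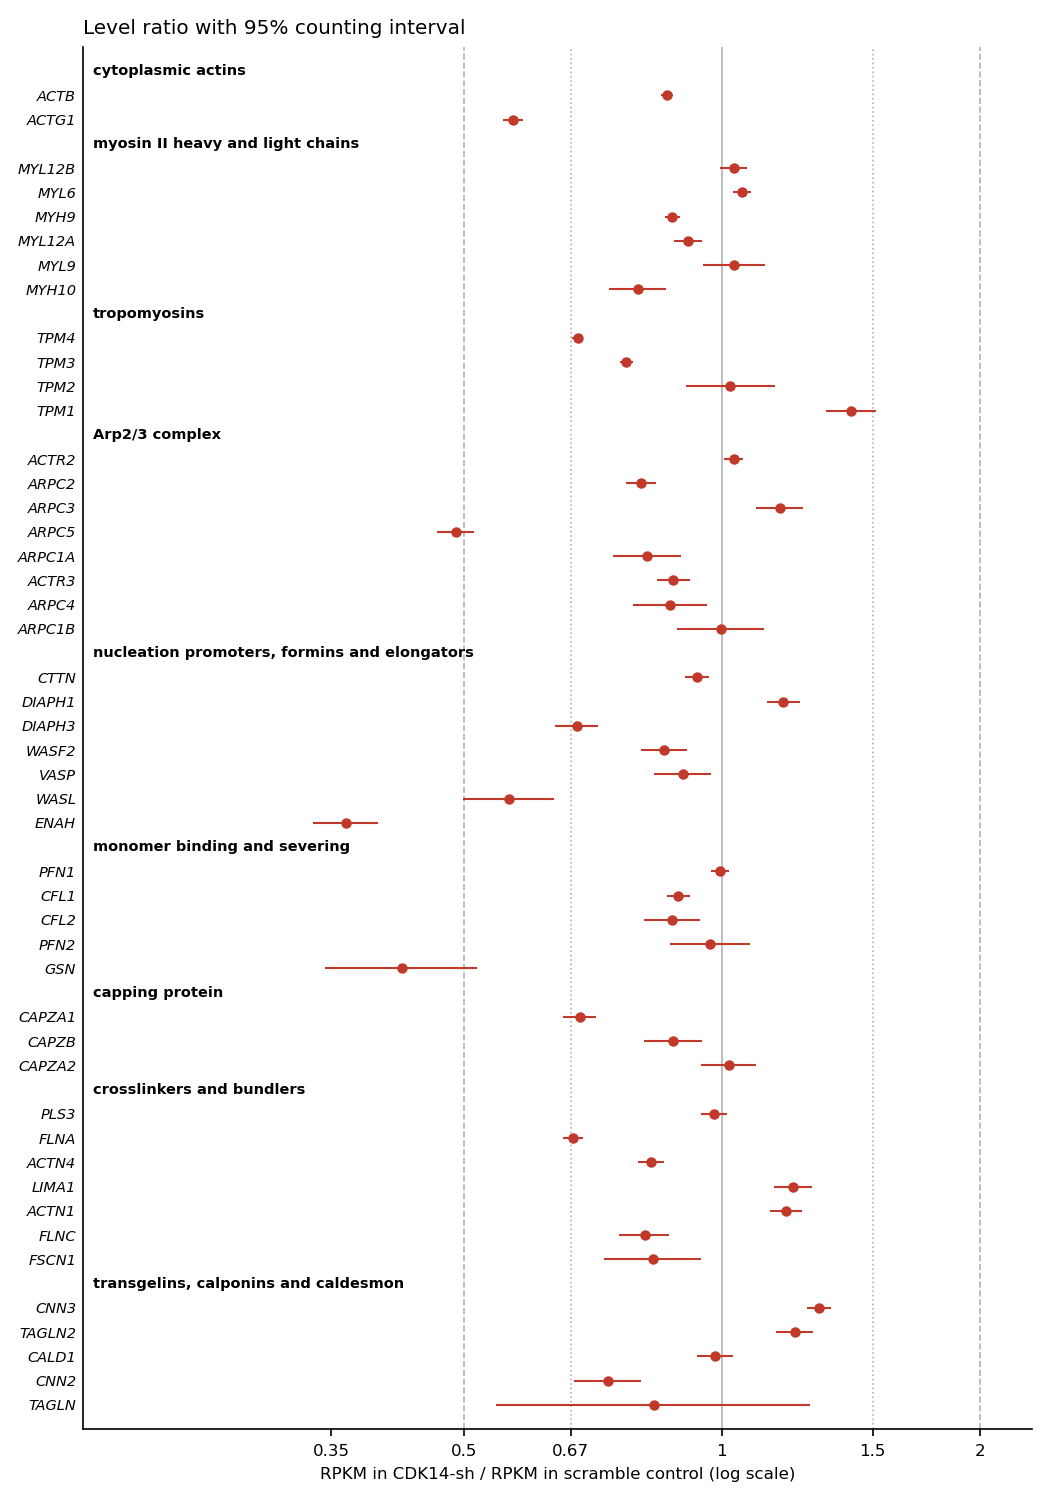
RPKM in CDK14-sh divided by RPKM in the scramble control (x axis, log scale) for the 47 genes by role, with 95% counting intervals, which cover counting error only. Dotted lines mark 1.5-fold and dashed lines 2-fold. ENAH, GSN and ARPC5 lie left of the lower dashed line and no gene lies right of the upper dotted line.

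Crosslinker genes were mostly lower. FLNA, encoding filamin A, which ties filaments into an orthogonal mesh, was at 53.1 RPKM in CDK14-sh and 79.3 RPKM in the scramble control, 1.49-fold lower (1.45 to 1.53). FLNC, its muscle-enriched relative, was at 10.4 RPKM in CDK14-sh and 12.9 RPKM in the scramble control, 1.23-fold lower (1.15 to 1.32). The alpha-actinin genes differed in direction. ACTN4 was at 59.6 RPKM in CDK14-sh and 72.1 RPKM in the scramble control, 1.21-fold lower (1.17 to 1.25), while ACTN1 was at 25.5 RPKM in CDK14-sh and 21.5 RPKM in the scramble control, 1.19-fold higher (1.14 to 1.24). ACTN4 had 2.33 times the level of ACTN1 in CDK14-sh and 3.35 times in the scramble control. FSCN1, encoding the filopodial bundler fascin, was 1.20-fold lower (1.06 to 1.37), at 7.05 RPKM in CDK14-sh and 8.49 RPKM in the scramble control. PLS3, encoding plastin 3, was at 97.1 RPKM in CDK14-sh and 99.3 RPKM in the scramble control, an interval of 0.945 to 1.01 for the ratio. LIMA1, encoding the filament stabiliser EPLIN, was 1.21-fold higher (1.15 to 1.28), at 31.1 RPKM in CDK14-sh and 25.7 RPKM in the scramble control.

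Of the calponin and transgelin genes, whose products bind along filaments, CNN3 and TAGLN2 had the highest ratios of the set after TPM1. CNN3 was at 181 RPKM in CDK14-sh and 140 RPKM in the scramble control, 1.30-fold higher (1.26 to 1.34). TAGLN2 was at 88.9 RPKM in CDK14-sh and 73.1 RPKM in the scramble control, 1.22-fold higher (1.16 to 1.28). CNN2 went the other way, at 14.0 RPKM in CDK14-sh and 19.1 RPKM in the scramble control, 1.36-fold lower (1.24 to 1.49). CNN2 thus had 0.0774 times the level of CNN3 in CDK14-sh and 0.136 times in the scramble control. CALD1, encoding caldesmon, was at 20.7 RPKM in CDK14-sh and 21.1 RPKM in the scramble control, with an interval of 0.937 to 1.03 for the ratio. TAGLN, a smooth muscle marker, had 42 CDK14-sh reads and 56 scramble reads, and its interval (0.546 to 1.27) shows no difference detectable at this depth.

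The sequence features printed above were set against these ratios. Of the 5 genes with a CArG box, ACTG1, FLNA, TPM4 and CNN2 were lower and ACTN1 was higher, with a median log2 ratio of -0.56. The median of the 34 genes with a listed promoter and no box was -0.18. Over all 8722 rows above 1 RPKM with a listed promoter, the 132 with a box had a median of -0.03 and the 8590 without one 0.04, and 14.4% and 7.42% of them were 1.5-fold lower. SRF, encoding the factor that binds the box, stood at 23.3 RPKM in CDK14-sh and 12.3 RPKM in the scramble control, 1.89-fold higher (1.74 to 2.06). Its coactivator genes MKL1 and MKL2 were at 2.35 and 1.02 RPKM in CDK14-sh and at 2.18 and 1.29 RPKM in the scramble control. A match is a description of these letters, and no part of the box in these levels was tested.

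A word from the 4 above was found in the 3' UTR of 9 of the 46 genes (19.6%), against 25.1% of the 10361 rows searched. These 9 had a median log2 ratio of -0.30, with 7 below 0, and the other 37 a median of -0.15, with 26 below 0. Among all rows searched, the 2598 with a word had a median of -0.09, with 1571 below 0. The 7763 without a word had a median of 0.07, with 3193 below 0. ENAH, ARPC5 and WASL were 1.5-fold lower among the 9 (33.3%), as were ACTG1 and GSN among the 37 (5.41%). Over all rows searched, 15.9% of those with a word and 4.80% of those without were 1.5-fold lower. ARPC3 and DIAPH1 carry the last 7 bases of ATCCATAA and were higher, so the word did not go with a lower level in each gene. Carriers have longer 3' UTRs, with a median of 1949 bases against 1001 among these genes. Over all rows searched the medians were 2979.5 bases with a word and 1000 without, and the part of length was not tested. None of the 9 was among the 5 genes with a CArG box.

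**Figure D5:**
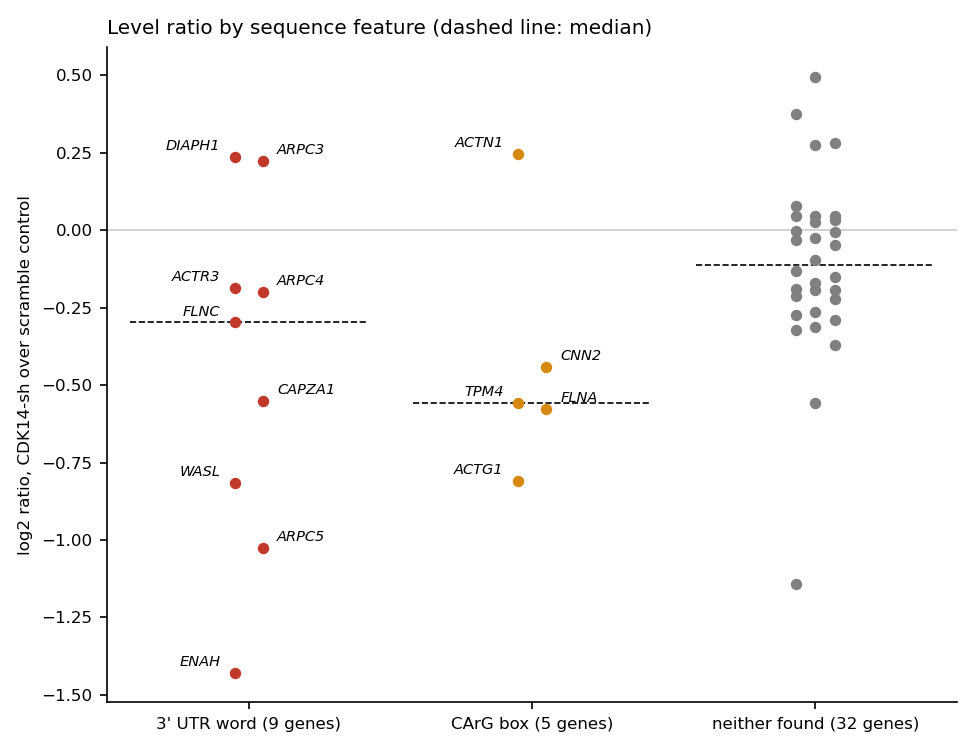
Log2 ratio of CDK14-sh over scramble control (y axis) for the 9 genes with a 3' UTR word, the 5 with a CArG box in a listed promoter and the 32 in which neither was found, those without a listed promoter included. Dashed lines mark the medians, -0.30, -0.56 and -0.11 from left to right. The choice of words used these ratios.

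Other genes of the pathway were counted from 5 lists of 81 genes, 60 of them above 1 RPKM. Of the 60, 44 lay below 0, 8 were 1.5-fold lower and 1, SRF, was 1.5-fold higher, with a median log2 ratio of -0.21. Over all rows above 1 RPKM 45.3% lay below 0, 9.55% were 1.5-fold lower and 9.11% were 1.5-fold higher. Among monomer-binding, severing and capping genes 15 of 18 lay below 0. GMFB, encoding a factor that loosens Arp2/3 branches, was at 8.82 RPKM in CDK14-sh and 22.8 RPKM in the scramble control, 2.58-fold lower (2.41 to 2.77). CAP1, encoding a cyclase-associated protein that recycles monomers, was at 34.7 RPKM in CDK14-sh and 83.8 RPKM in the scramble control, 2.41-fold lower (2.29 to 2.54). CAPG, a gelsolin relative that caps but does not sever, was 1.66-fold lower (1.49 to 1.84), and CAP2 1.47-fold lower (1.35 to 1.61). In the crosslinker and filament-binding list 16 of 17 lay below 0, with a median of -0.45. SYNPO, encoding synaptopodin, was 2.41-fold lower (2.11 to 2.77), SPTAN1, encoding alpha spectrin, 1.61-fold lower (1.55 to 1.67), PDLIM5 1.61-fold lower (1.52 to 1.70) and PALLD, encoding palladin, 1.48-fold lower (1.38 to 1.59).

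Other nucleator genes were evenly placed, with 12 of 22 below 0 and a median of -0.09. ABI1, encoding a subunit of the WAVE complex, was 1.70-fold lower (1.56 to 1.87) at 11.1 RPKM in CDK14-sh and 18.9 RPKM in the scramble control. The formin gene FMNL1 was 1.55-fold lower (1.41 to 1.70), BAIAP2, encoding the membrane-bending protein IRSp53, 1.39-fold lower (1.13 to 1.72) and the formin gene DAAM1 1.43-fold higher (1.24 to 1.65).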

How the data were processed

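RNA of 1 CDK14-sh and 1 scramble library, made with a stranded mRNA kit per the labels' protocols, was analysed from 1 table of RPKM values that the authors deposited. Per the file headers it also gives exon positions and their summed length. Per the submitters' processing notes, Subread 1.5.1 with featureCounts and Bowtie 0.12.2 were tools, and builds were GRCh38 and mm8, with roles not stated. Options for strand and multi-mapping were not given in the sources used here. Dividing RPKM times length by 1 constant for each library gave whole reads (within 0.01) at 100% of the values above 0, so reads were recovered (15478156 in CDK14-sh, 17217564 in the scramble control) and used for 95% Clopper-Pearson intervals. Intervals on a ratio of 2 ratios used a normal approximation on the log scale. All 47 genes matched a GENCODE 29 name, 41 with the same start and end. Exons of 22 of the 47 rows overlap another row.

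The log2 ratio of CDK14-sh over scramble control was taken after adding 0.1 RPKM to each level, over rows reaching 1 RPKM in either library. A test between groups needs replicates and each group is 1 library, so no gene was tested. All 47 genes were named, up to 4 genes above 1 RPKM of each other pathway list by size of ratio, and marker genes as a check of the label. ACTA1, ACTA2 and ARPC5L were named after their values were seen. A further list is not reported here. Genes, lists and 3' UTR words were chosen with earlier results of these data known, and the promoter search and ratios within a library after the values were seen. The ratio and interval were tested on simulated counts with counting error only, so that test does not cover variation between cultures. Work was done in Python 3.11.15 with scipy 1.17.1, numpy 2.4.6, pandas 2.3.3, matplotlib 3.10.9 and bedtools 2.31.1.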

Additional observations from a re-analysis of the deposited data

How the results depend on the processing

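No paired analysis was possible because there was a single library in either group. The median log2 ratio of the actin cytoskeleton genes was below 0 in the setting used throughout (-0.19) and in all 10 alternatives. TPM, which moves the scale between the libraries by -0.15 log2, gave -0.34, and the median over all rows was then -0.11. Relative to the median of all rows, the genes stood at -0.23 in the setting used throughout and between -0.23 and -0.21 in the alternatives. At 2-fold, 3 genes were lower but 1, ENAH, when the pseudocount was raised to 1 RPKM, which shrinks low levels. There were 2 with mitochondrial reads left out, where ARPC5 fell short at -0.98, and 2 with a filter of 5 RPKM or over rows overlapping no other, both of which leave out GSN. The share of all rows 2-fold lower was 3.47%, against 1.74% with the raised pseudocount and 3.44% with mitochondrial reads left out. It was 2.23% with the filter of 5 RPKM and 4.52% over rows overlapping no other. At 1.5-fold, 5 were lower, against 10 in TPM, 9 with median centring and 9 with trimmed-mean scaling. The share of all rows 1.5-fold lower was 9.55%, against 15.9% in TPM, 10.7% with median centring and 10.5% with trimmed-mean scaling. FLNA, TPM4, DIAPH3 and CAPZA1, all just under 1.5-fold, joined in each of these 3, and CNN2 in TPM. No gene was 1.5-fold higher in any alternative. Over rows overlapping no other, 25 genes remained and 4 were 1.5-fold lower, where 11.1% of all such rows were. TPM also gave medians of -0.66 for cytoplasmic actins, -0.20 for myosin II, -0.32 for tropomyosins, -0.35 for the Arp2/3 complex, -0.37 for its activators with formins and elongators, -0.32 for monomer-binding and severing genes, -0.34 for capping protein and -0.18 for transgelins, calponins and caldesmon. With the level filter set on TPM values all 47 genes passed. TAGLN was thus among them, so that last median is over 5 genes and does not show the scale shift alone. It was 0.13 over 4 genes in the setting used throughout and -0.025 with no level filter, which also adds TAGLN. Over rows overlapping no other it was 0.28, and the myosin II median was there 0.045 instead of -0.043. The median of cytoplasmic actins was -0.51, -0.55 with median centring or trimmed-mean scaling and -0.47 with mitochondrial reads left out. For genes of the other lists, whose alternatives were chosen after seeing the data, TPM gave a median of -0.36, not -0.21, and 19 genes 1.5-fold lower in place of 8, and rows overlapping no other gave 5. Of these lists 1 gene was 1.5-fold higher, against 3 with no level filter, 2 in TPM and 2 with mitochondrial reads left out. The share of all rows 1.5-fold higher was 9.11%, against 15.1% with no level filter, 7.60% in TPM and 11.2% with mitochondrial reads left out. With no level filter 77 genes of these lists were counted, not 60. Of 438 values of single genes in alternatives, 69 moved beyond their counting interval and 14 changed sign, all of genes within 0.08 of 0 in the setting used throughout. Depth limits TAGLN and GSN most.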
